A study of Eragrostis tef with 16 samples.

Results

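The 2 genes of tef (Eragrostis tef, an allotetraploid cereal that carries an A and a B subgenome) described as CBL-interacting protein kinase 9 (CIPK9) were followed across roots and shoots at low and optimum calcium. They are Et_4A_032628, called the A copy below, and Et_4B_036730, called the B copy, after the chromosome letter in their identifiers, and they are 2 of the 5824 genes with values. They were taken by that description. The pair was picked with its lower values under low calcium already known, so its calcium responses are given as a description without a test. No gene sequence or position was used here.

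CIPKs are plant protein kinases that are switched on by calcineurin B-like proteins (CBLs), small sensors that bind calcium and bring the kinase to the plasma membrane or the vacuole membrane. The activated kinase phosphorylates ion channels, transporters and oxidases, so a calcium signal is passed on to nutrient uptake. In Arabidopsis, CIPK9 and its near relative CIPK23 act with CBL2 and CBL3 at the vacuole and are known for their part in growth under low potassium, and protein phosphatases of type 2C oppose several CIPKs.

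The plants were grown in hydroponic solution. Total RNA was taken from root or shoot, under a low or an optimum calcium treatment. The 4 groups were optimum calcium root, low calcium root, optimum calcium shoot and low calcium shoot, with 4 libraries each, numbered as replicates. The labels give no calcium concentration, cultivar or plant age and no mutant, and do not say whether replicates were separate plants, so the p-values measure only a spread between samples that may be technical. For low calcium shoot replicate 4 the title names both tissues, and it was placed in shoot by its source name. The library numbers in the titles put all low calcium libraries before all optimum ones. Within each calcium level they put all root libraries before all shoot ones. That order cannot be told apart from calcium or, within a calcium level, from tissue.

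The values count reads on each gene, but no source used here says whether these are mRNA or small RNA reads. The library titles carry the letters mi before the library number, without explanation. Higher and lower refer to the reads on each gene. In bulk tissue, fewer cells of a type and less RNA per cell cannot be told apart. Reads recovered over all 5824 genes ran from 1.20 to 2.02 Mreads (megareads) in low calcium root, 2.32 to 3.44 Mreads in optimum calcium root, 1.82 to 2.10 Mreads in low calcium shoot and 2.63 to 2.85 Mreads in optimum calcium shoot, and were thus fewer at low calcium in both tissues. The tissue labels held: 3 genes for chlorophyll a-b binding proteins, which harvest light in leaves, summed to 316 to 723 reads per Mread in the 8 root libraries and 58985 to 93267 in the 8 shoot libraries. The 6 genes for nicotianamine synthase and the transporter YSL16, which serve metal transport, summed to 3481 to 32512 reads per Mread in root and 1122 to 2099 in shoot.

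The A copy was read at a like level in both tissues, and it was lower at low calcium in each. In optimum calcium root its deposited log2 values, log2(scaled reads + 1), were 10.12, 10.19, 9.99 and 10.45 for replicates 1 to 4 (mean 10.19 ± 0.19, SD, n = 4), from 1458 to 2154 reads. In low calcium root they were 8.79, 8.58, 9.19 and 8.72 (8.82 ± 0.26, SD, n = 4), from 260 to 641 reads. Every low calcium root library lay below every optimum one. In optimum calcium shoot the A copy had log2 values of 10.23, 10.16, 10.71 and 9.45 (10.14 ± 0.52, SD, n = 4; 818 to 1487 reads). In low calcium shoot it had 9.22, 9.17, 9.83 and 8.50 (9.18 ± 0.54, SD, n = 4; 325 to 746 reads). The shoot groups overlapped, since low calcium replicate 3 lay above optimum replicate 4.

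The B copy was read strongly in shoot and weakly in root, and it too was lower at low calcium in each tissue. In optimum calcium shoot its log2 values were 9.77, 9.58, 10.43 and 9.23 for replicates 1 to 4 (9.75 ± 0.51, SD, n = 4; 700 to 1225 reads). In low calcium shoot they were 8.69, 9.001, 8.91 and 7.62 (8.55 ± 0.64, SD, n = 4; 176 to 394 reads). All 4 low calcium shoot libraries lay below all 4 optimum ones. In optimum calcium root the B copy had log2 values of 6.37, 6.06, 6.43 and 6.22 (6.27 ± 0.17, SD, n = 4; 90 to 124 reads). In low calcium root it had 4.63, 4.86, 5.39 and 5.01 (4.97 ± 0.32, SD, n = 4), from only 14 to 45 reads, so its counting error was larger there than in the other groups. The root groups did not overlap either. The order of the B copy's levels was therefore optimum shoot, low shoot, optimum root and low root, with no overlap between neighbours. The A copy had both optimum groups at the top and both low calcium groups at the bottom, and within each of these pairs the root and shoot libraries overlapped.

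**Figure D1:**
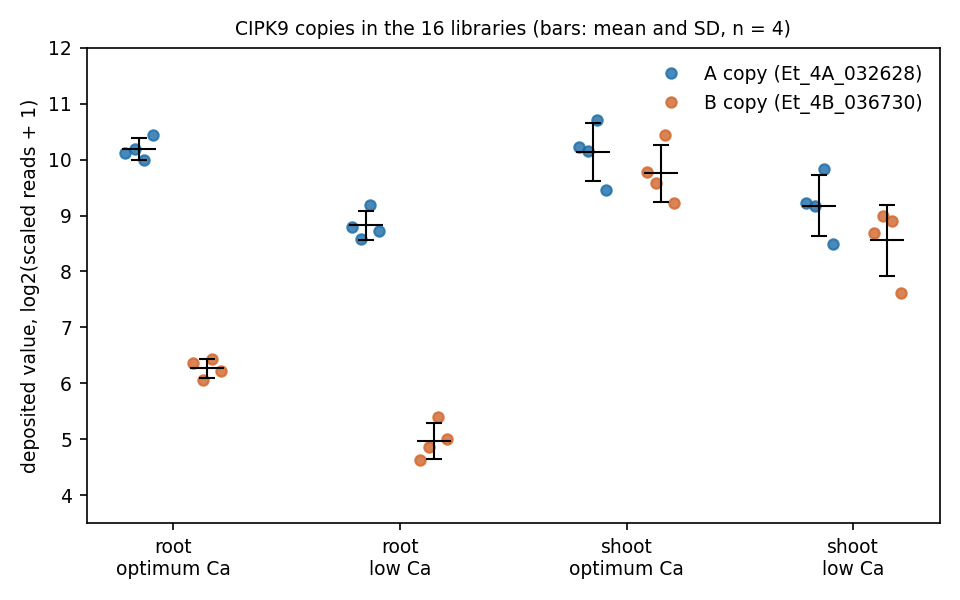
Deposited log2(scaled reads + 1) of the CIPK9 A copy (blue) and B copy (orange) in the 16 libraries, by tissue and calcium; points are libraries, and black bars give the mean and SD of 4. Both copies are lower at low calcium in root and in shoot, and the B copy is far lower in root (means 6.27 and 4.97) than in shoot (9.75 and 8.55).

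In root, the mean scaled reads of the A copy at low calcium were 61.0% below those at optimum calcium, and those of the B copy 59.5% below. On the log2 scale the differences, low minus optimum, were -1.36 (SE 0.26) for the A copy and -1.30 (SE 0.29) for the B copy. In shoot the mean scaled reads were 48.4% lower for the A copy and 55.8% lower for the B copy, or -0.96 (SE 0.26) and -1.20 (SE 0.29) on the log2 scale. Low calcium groups lay wholly below optimum ones for both copies in root, where 9.53% of all genes did so, and for the B copy alone in shoot, where 17% did. Nothing is read from these counts, since the pair was chosen on them. The median difference of all genes was -0.03 in root and -0.12 in shoot. Relative to that median the A copy differed by -1.34 in root and -0.84 in shoot, and the B copy by -1.27 and -1.08. Without low calcium shoot replicate 4, the library whose title names both tissues and the lowest of its group for both copies, the shoot differences were -0.73 for the A copy and -0.89 for the B copy.

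Within groups the copies did not always vary together. Both lay on the same side of their group means in 9 of the 16 libraries, and in none of the 4 optimum calcium root libraries. The widest deviations of the A copy were shared by the B copy. They were 0.58 (A) and 0.68 (B) in optimum calcium shoot replicate 3 and -0.69 and -0.53 in its replicate 4. In low calcium shoot they were 0.65 and 0.35 in replicate 3 and -0.68 and -0.94 in replicate 4, but -0.01 and 0.45 in replicate 2. In shoot, replicate 3 was the highest library of the optimum group for both copies and replicate 4 the lowest in both shoot groups for both copies. In low calcium shoot, replicate 3 was the highest for the A copy and replicate 2 for the B copy.

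How each copy differed between root and shoot was not the difference for which the pair was picked, and it was tested with limma over all 5824 genes. Earlier results of these data were known at the choice, so the independence of these tests from it is not shown. The B copy was lower in root, 11.2-fold at optimum calcium (log2 difference -3.48, SE 0.29, 95% interval -4.09 to -2.87, limma adjusted p 1.74e-08). At low calcium it differed by -3.58 or 11.96-fold (SE 0.29, 95% interval -4.19 to -2.97, limma adjusted p 1.66e-08). In both cases all 4 root libraries lay below all 4 shoot libraries, as they did for 31.8% of all genes at optimum and 26.3% at low calcium. The A copy did not pass: its root minus shoot difference was 0.05 at optimum calcium (SE 0.26, 95% interval -0.51 to 0.61, limma adjusted p 0.878) and -0.36 at low calcium (SE 0.26, 95% interval -0.92 to 0.21, limma adjusted p 0.268). Without low calcium shoot replicate 4 the latter was -0.58 (limma adjusted p 0.0599), and without low calcium shoot replicate 3 it was -0.14. The intervals over all libraries bound the A copy's tissue difference well below the size of the B copy's and do not show that it was 0. Passing the test was common, because 66.6% of all genes did so at optimum calcium (33.7% lower in root) and 56.9% at low calcium (28.4% lower in root), so the size of the B copy's difference says more than its call.

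When libraries were scaled by their totals, the all-gene median shifted from -0.04 to 0.41 between tissues at optimum calcium and from 0.01 to 0.27 at low calcium. The A copy's differences became 0.51 (limma adjusted p 0.0576) and -0.10 (limma adjusted p 0.724), while those of the B copy were -3.03 and -3.33. Relative to the median the A copy stayed at 0.09 and -0.37 and the B copy at -3.44 and -3.60.

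The share of the pair's reads that came from the A copy shows the tissue contrast within each library, free of scaling between libraries. The lengths of the 2 genes are not in the files used here, so the share does not compare the copies' levels with each other, but it can be compared between tissues. In optimum calcium root the A copy gave 93.2%, 94.7%, 92.2% and 94.98% of the pair's reads in replicates 1 to 4 (93.8% ± 1.29, SD, n = 4). In low calcium root it gave 94.9%, 93.2%, 93.4% and 93.1% (93.7% ± 0.840, SD, n = 4). In optimum calcium shoot it gave 57.9%, 59.9%, 54.8% and 53.9% (56.6% ± 2.78, SD, n = 4). In low calcium shoot it was 59.0%, 52.9%, 65.4% and 64.9% (60.6% ± 5.86, SD, n = 4). The lowest of the 8 root libraries, at 92.2%, thus lay above the highest of the 8 shoot libraries, at 65.4%. Exact Clopper-Pearson 95% intervals cover counting error only. They ran from 91.6% to 97.2% for the 274 pair reads of low calcium root replicate 1 and from 60.5% to 69.1% for the 501 of low calcium shoot replicate 4.

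**Figure D2:**
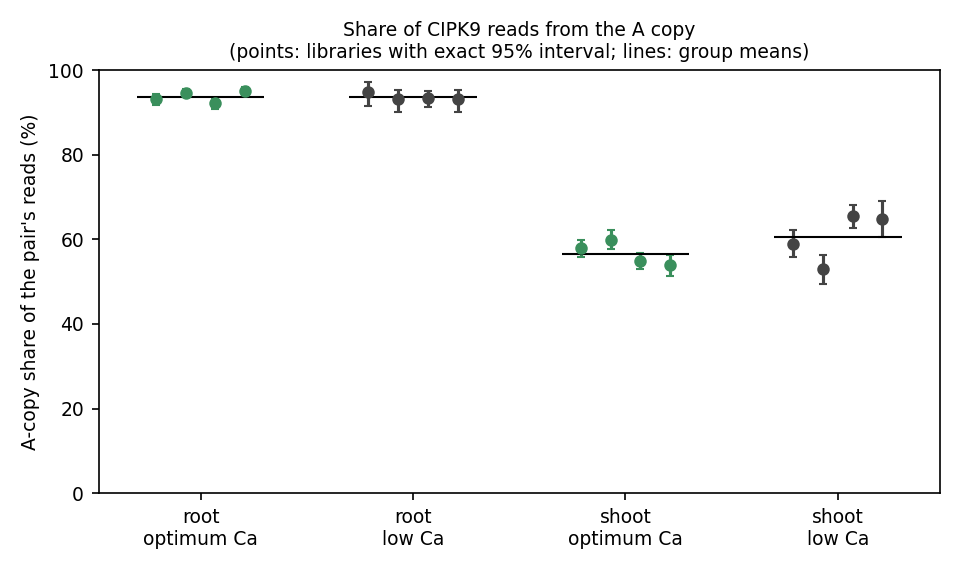
Share of the pair's reads that came from the A copy (%), in the 16 libraries, by tissue and calcium; points are libraries with their exact 95% intervals (counting error only), and lines are group means. Root libraries lie between 92.2% and 94.98% and shoot libraries between 52.9% and 65.4%, at either calcium level.

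The A copy's share was higher in root by 37.1 percentage points at optimum calcium and by 33.1 points at low calcium. Each had a two-sided exact permutation p of 0.0286, the smallest that 4 against 4 libraries allow, and 0.0286 after adjustment over the 2 tests. In a limma fit of the log2 ratio of A to B reads over 1234 gene pairs (genes that alone share a description, 1 on an A and 1 on the B chromosome of the same number), a fit chosen after seeing the data, the ratio was 11.6-fold higher in root at optimum calcium. That is a log2 difference of 3.53 (SE 0.20, 95% interval 3.10 to 3.96, limma adjusted p 6.46e-09). At low calcium it was 9.35-fold higher in root (3.22, SE 0.20, 95% interval 2.80 to 3.65, limma adjusted p 2.9e-08). Without low calcium shoot replicate 4 the latter was 3.31.

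Many pairs differed between tissues, but few as much. The ratio passed the test in 46.7% of pairs at optimum and 32.7% at low calcium, and its groups did not overlap in 40.9% and 33.5%. The median size of the difference was 0.40 and 0.29 on the log2 scale, and 236 pairs (19.1%) and 159 pairs (12.9%) exceeded 1. CIPK9 ranked 11 of 1234 at optimum and 10 of 1234 at low calcium by the size of this difference. Low minus optimum calcium, the log2 ratio of the CIPK9 pair differed by -0.07 in root and 0.24 in shoot (SE 0.20 each), given without a test. Nothing is read from these values, since the pair was picked with both copies known to be lower at low calcium. The only other pair of CBL or CIPK genes among the 1234 was that of CBL3 (Et_4A_033195 and Et_4B_037384), a vacuole membrane sensor. Its log2 ratio differed by -0.15 between root and shoot at optimum calcium (SE 0.15, limma adjusted p 0.455) and by -0.62 at low calcium (SE 0.15, limma adjusted p 0.00601), towards the B copy in root.

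**Figure D3:**
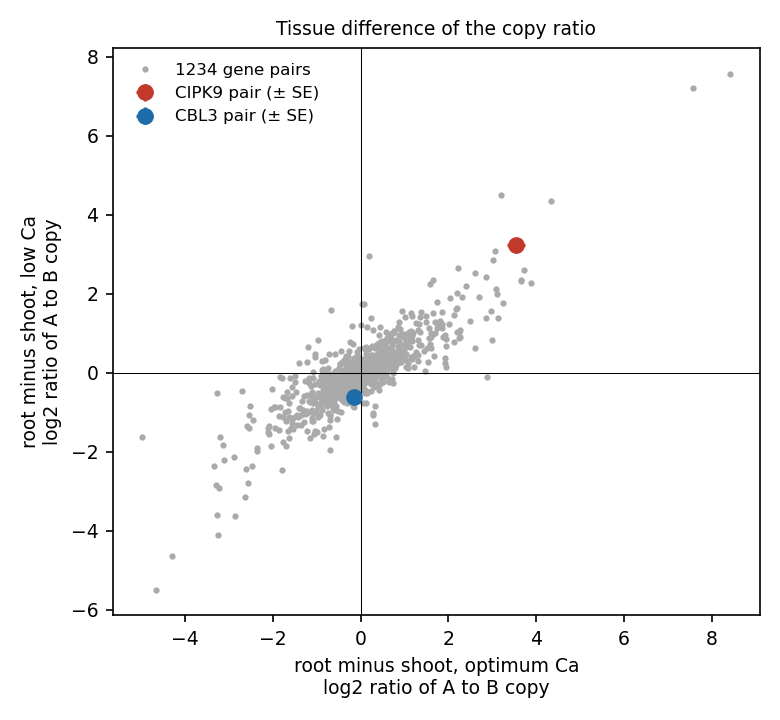
Root minus shoot difference of the log2 ratio of A-copy to B-copy reads, at optimum (x axis) and low calcium (y axis), for 1234 gene pairs (grey), with the CIPK9 pair (red) and the CBL3 pair (blue) and their SE. CIPK9 lies at 3.53 and 3.22, outside the bulk of pairs, and CBL3 near the centre at -0.15 and -0.62.

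Added up, the pair had 1250 ± 156 scaled reads in optimum calcium root, 489 ± 94.6 in low calcium root, 2084 ± 733 in optimum calcium shoot and 1009 ± 343 in low calcium shoot (SD, n = 4 each). How the authors divided reads between the copies is not given, and no sequence was used here to tell how alike they are. A part of the B copy's few root reads may belong to the A copy, and reads may be misplaced in shoot too. This was not tested.

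Among the other members of the kinase family, none of 5 CIPK genes passed the test for low against optimum calcium in root, where 8.33% of all genes passed, or in shoot, where 39.4% did (limma; at an unadjusted p under 0.05, 1 in each tissue, beside 28.3% of all genes in root and 49.1% in shoot). CIPK7 (Et_4A_032134) had the most reads of these 5, with log2 values of 10.29 ± 0.18 in optimum and 10.39 ± 0.15 in low calcium root, and of 10.71 ± 0.36 and 10.41 ± 0.23 in shoot (SD, n = 4). It differed by 0.11 in root and -0.31 in shoot. CIPK11 (Et_3A_026983), whose Arabidopsis namesake restrains a plasma membrane proton pump, differed by -0.03 in root and -0.09 in shoot. CIPK19 (Et_3A_025028) differed by 0.44 and -0.17, and CIPK4 (Et_10B_004264) by 0.54 and 0.68. A second gene described as CIPK19, marked as of low quality (Et_9B_063715), differed by -0.06 in root and 0.79 in shoot. The last of these passed with median-ratio scaling (0.91, limma adjusted p 0.0419) and with scaling by the total (0.98, limma adjusted p 0.0277). Without optimum calcium shoot replicate 3, CIPK4 (1.04, limma adjusted p 0.0344) and Et_9B_063715 (1.16, limma adjusted p 0.00575) both passed in shoot, and without optimum calcium shoot replicate 4 CIPK4 differed there by 0.19. The signs of small differences turned with the scaling for CIPK11 in both tissues, for Et_3A_025028 in shoot and for Et_9B_063715 in root.

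The sensors that switch CIPKs on were represented by both copies of CBL3. The B copy of CBL3 (Et_4B_037384) fell in shoot, with a log2 difference of -0.49 (SE 0.14, limma adjusted p 0.014), from 6.47 ± 0.15 to 5.97 ± 0.08 (SD, n = 4). This call was lost with median-ratio scaling (limma adjusted p 0.0523), scaling by the total (0.185) and a fit of the 2 groups alone (limma adjusted p 0.0512). Its root difference of -0.08 and the differences of the A copy of CBL3 (Et_4A_033195), -0.33 in root and -0.26 in shoot, did not pass.

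**Figure D4:**
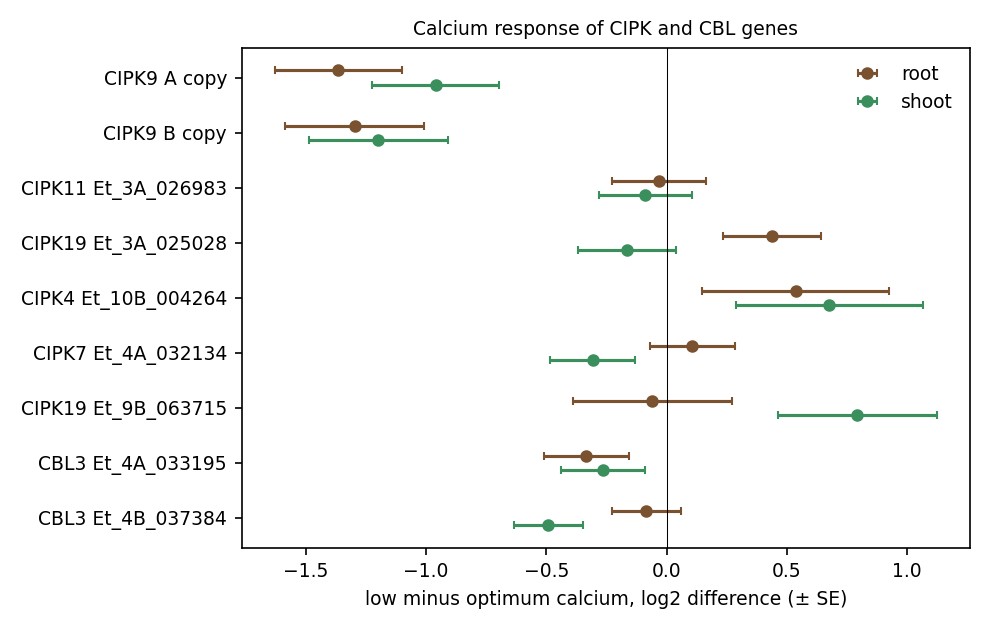
Low minus optimum calcium log2 differences with their SE for the CIPK9 copies, the 5 other CIPK genes and the CBL3 genes, in root (brown) and shoot (green). The CIPK9 copies lie between -1.36 and -0.96, and the other genes between -0.49 and 0.79.

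Between tissues, CIPK19 (Et_3A_025028) was lower in root at both calcium levels, with differences of -2.001 at optimum (limma adjusted p 2.2e-07) and -1.40 at low calcium (limma adjusted p 1.86e-05), also with the 2 other scalings. CIPK11 was lower in root (-0.58 and -0.52, limma adjusted p 0.0143 and 0.0298), but its differences were -0.13 and -0.27 and did not pass with scaling by the total. CIPK7 was lower in root at optimum calcium (-0.43, limma adjusted p 0.0416), and its difference turned to 0.03 with scaling by the total. The B copy of CBL3 was higher in root at low calcium by 0.46 (SE 0.14, limma adjusted p 0.0118). With scaling by the total it was also higher in root at optimum calcium (0.50, limma adjusted p 0.0132), and so was the low-quality CIPK19 gene, Et_9B_063715 (1.11, limma adjusted p 0.00483), where the deposited scale gave 0.05 and 0.66 and no call.

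Transport proteins and enzymes that CIPKs are known to act on in other plants, and the related kinases and phosphatases, were taken as lists by words in their descriptions. The 7 lists, those of CIPKs and CBLs included, held 79 genes other than the CIPK9 pair. In root, 0 of them rose and 6 fell at low calcium. Among all genes 5.32% rose and 3% fell. This count rested on single libraries: it was 0 without any 1 of optimum or low calcium root replicates 1, 2 and 4, and 10 without optimum calcium root replicate 3. In shoot 13 rose and 22 fell, beside 18.5% and 20.9% of all genes. With median-ratio scaling 16 rose and 18 fell, and with scaling by the total 16 rose and 14 fell.

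Of 16 potassium transport genes, 1 fell in root and 7 fell in shoot, and none rose in either. Among all genes 3% fell and 5.32% rose in root, and 20.9% fell and 18.5% rose in shoot. The median difference of the list was 0.08 in root and -0.24 in shoot. Both genes described as potassium transporter 2, which belongs to a family that imports potassium into cells, fell in shoot. Et_3B_030202 had log2 values of 11.78, 11.55, 11.90 and 11.89 at optimum and 10.27, 10.10, 11.07 and 9.74 at low calcium in shoot, a difference of -1.48 with no overlap (SE 0.22, limma adjusted p 1.10e-04). Et_3A_025833 fell as well (-1.22, SE 0.23, limma adjusted p 0.00104). Both genes for potassium transporter 23 fell in shoot too, Et_2A_016403 (-0.97) and Et_2B_020486 (-0.87), and Et_2B_020486 was the one that fell in root (-0.80, limma adjusted p 0.0423). With scaling by the total the falls numbered 5 in shoot and 0 in root. Those in shoot numbered 4 without optimum calcium shoot replicate 3 and 4 without low calcium shoot replicate 4.

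Of 20 genes for other reported targets of CBLs and CIPKs, 10 rose and 2 fell in shoot, beside 18.5% and 20.9% of all genes. The list median there was 0.98. None passed in root, where 8.33% of all genes did (5 at an unadjusted p under 0.05, beside 28.3% of all genes). The 3 genes for respiratory burst oxidase B, a plasma membrane enzyme that makes superoxide outside the cell, led the rises. Et_10B_003796 had log2 values of 0.98, 2.57, 2.46 and 1.44 at optimum and 5.72, 6.59, 5.40 and 7.10 at low calcium in shoot, a rise of 4.34 that starts from very few reads (SE 0.46, limma adjusted p 6.27e-06). Et_3A_023793 rose by 2.53 and Et_3B_028206 by 2.10. The vacuolar cation/proton exchanger 1a (Et_3B_028509), which loads calcium into the vacuole and had the most reads of this list over all 16 libraries, fell in shoot. Its values there were 11.26, 11.36, 11.84 and 12.04 at optimum and 8.26, 9.48, 9.64 and 8.92 at low calcium, a difference of -2.55 with no overlap (SE 0.35, limma adjusted p 7.14e-05). In root it differed by -0.79 and did not pass (limma adjusted p 0.157). The list is one of known targets of the pathway in general, and none of its genes is known from these data to be a target of CIPK9.

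Calcium-dependent protein kinases sense calcium and phosphorylate their targets in 1 protein. Of 13 genes for them, 1 rose and 4 fell in shoot, beside 18.5% and 20.9% of all genes. None passed in root, where 8.33% of all genes did (1 at an unadjusted p under 0.05, beside 28.3% of all genes). The rise, that of Et_9B_064669 (number 1 of that family, 0.79, limma adjusted p 0.0492), was not called by voom (limma adjusted p 0.402) or without any 1 of 6 of the 8 shoot libraries (limma adjusted p 0.0563 to 0.148). Et_7B_054972, described as calcium-dependent protein kinase 12, fell in shoot (-1.10, SE 0.24, limma adjusted p 0.0027), and Et_4A_033473, number 9 of that family, fell too (-0.86). Both genes for number 4 fell in shoot, Et_1A_007932 (-1.63) and Et_1B_014187 (-1.39), and the latter did not pass with either other scaling or without any 1 of 5 of the 8 shoot libraries. Without optimum calcium shoot replicate 3 it differed by -0.83 (limma adjusted p 0.119). The most read gene of the list, Et_7B_054904 (number 13), differed in root by 0.40 (limma adjusted p 0.206). None of 3 relatives of the SnRK1 and SnRK2 kinases, which act in energy and abscisic acid signalling, passed in either tissue. Among all genes 8.33% passed in root and 39.4% in shoot. Nor did any of the 3 have an unadjusted p under 0.05, beside 28.3% of all genes in root and 49.1% in shoot. So few genes say little. The most read, Et_4A_032460, differed by 0.09 in root and 0.35 in shoot.

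Of 20 genes for phosphatases of type 2C, 5 fell and none rose in root, and 8 fell and 2 rose in shoot. Among all genes 3% fell and 5.32% rose in root, and 20.9% fell and 18.5% rose in shoot. The list medians were -0.35 in root and -0.34 in shoot. Probable protein phosphatase 2C 41 (Et_7A_051189) fell in both tissues. Its log2 values in root were 8.19, 8.22, 8.31 and 8.34 at optimum and 7.27, 7.41, 7.91 and 7.43 at low calcium, a difference of -0.76 with no overlap (limma adjusted p 0.0299). In shoot it differed by -1.13 (limma adjusted p 4.23e-04). The other falls named in root were those of Et_7A_051459 (-0.48), Et_9B_065951 (-0.51) and Et_8B_060616 (-0.77), and each of the 5 calls was lost without some single root library. In shoot Et_5B_044156 (-0.96), Et_7B_053913 (-0.87) and Et_7B_054193 (-0.47) fell, the last not with scaling by the total. The falls in shoot numbered 4 and the rises 3 with scaling by the total.

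**Figure D5:**
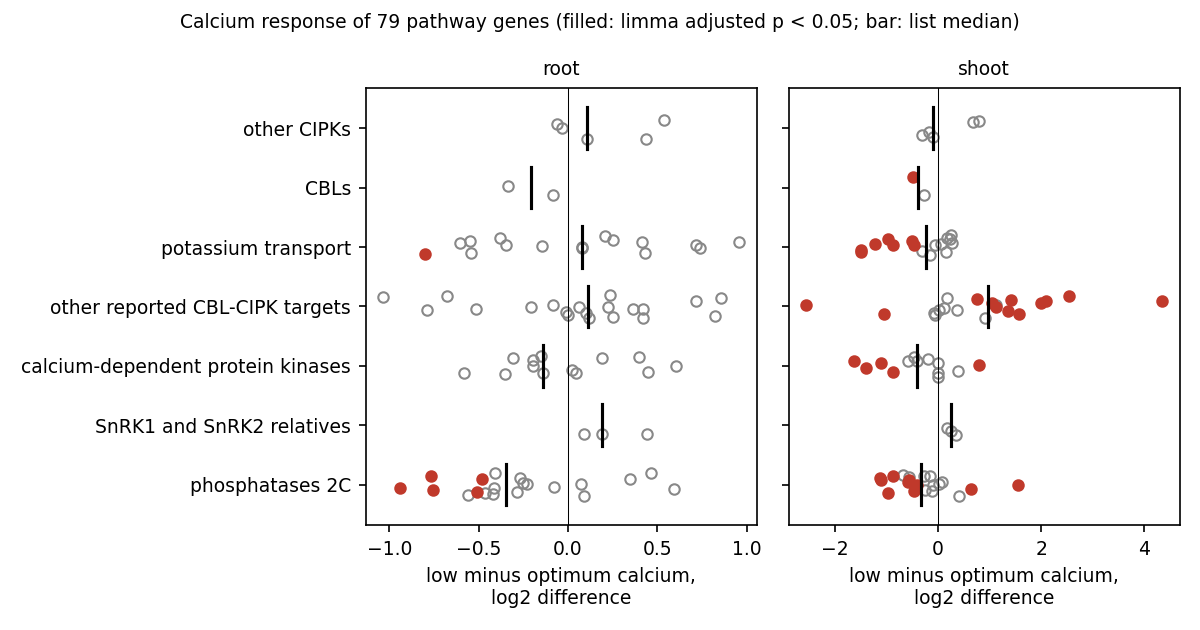
Low minus optimum calcium log2 differences of the 79 genes of the 7 lists in root (left) and shoot (right); each point is a gene, filled where the limma adjusted p was under 0.05, and black bars are list medians. In root 6 genes are filled, all below 0, and in shoot 35 are filled, 13 above and 22 below 0.

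Between tissues, 32 of the 79 listed genes were higher and 22 lower in root at optimum calcium, beside 32.9% and 33.7% of all genes. At low calcium 33 were higher and 16 lower, beside 28.4% of all genes in each direction. With scaling by the total the counts became 39 and 13, and 40 and 13. The all-gene median moved as well, to 0.41 at optimum and 0.27 at low calcium. The 20 other targets had the largest list median, 2.30 at optimum and 1.10 at low calcium, with 14 and 13 higher in root.

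The genes whose pattern was most like each copy were ranked by Pearson r over the 16 libraries, which share tissue, calcium group and depth, so r is a description only. For the A copy these were an uncharacterized protein (Et_10A_001483, r = 0.94), the splicing factor RS2Z32 (Et_9A_061518, 0.91), TOM1-like protein 9 (Et_1A_007299, 0.89), peroxisome biogenesis protein 5 (Et_8B_059864, 0.89) and ABC transporter A family member 2 (Et_8A_057925, 0.89). For the B copy they were protein REVEILLE 6 (Et_1B_013145), chlorophyllide a oxygenase (Et_3B_030303), the silicon efflux transporter LSI2 (Et_4B_039557), translocase of chloroplast 159 (Et_9A_062706) and violaxanthin de-epoxidase (Et_7A_051299), all at r = 0.98. The copies themselves stood far apart in these rankings, with r = 0.46 between them. The B copy ranked 1302 among the genes nearest to the A copy, and the A copy 2250 among those nearest to the B copy.

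Subtracting each tissue's mean leaves the calcium differences on which the pair was chosen, so nothing is read from the likeness of the copies on that scale, where r between them was 0.94 over the 16 libraries. The B copy ranked 5 for the A copy, behind the probable ubiquitin ligase RZFP34 (Et_3B_029225, 0.97), the uncharacterized Et_8B_059862 (0.96), Et_10A_001483 (0.95) and the uncharacterized Et_1A_008535 (0.94). The A copy ranked 4 for the B copy, behind ABC transporter A family member 2 (Et_8A_057925, 0.95), probable protein phosphatase 2C 41 (Et_7A_051189, 0.95) and Et_8B_059862 (0.95), with LSI2 (Et_4B_039557, 0.93) next after it. By Spearman rho the other copy ranked 51 for the A copy and 15 for the B copy, both at 0.89.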

How the data were processed

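Root and shoot libraries of tef at low and optimum calcium, 4 per group, were grouped by their tissue and treatment labels. The authors deposited 1 log2 value per library for 5824 genes in a block headed target genes, 5606 of them described, and 5634 listed identifiers have no values. The sources used here do not give the rule for choosing these genes, the aligner, the build or the counting. Each deposited log2 column was tied to its library through the tissue letter and the number it shares with the title, and an H at the start of the optimum calcium columns is not explained. Undoing the log2 and the offset of 1 gave whole multiples of a library's smallest step for 100% of 93184 values (tolerance 0.1 of a step), so the deposited values are log2(scaled reads + 1) and whole reads were recovered. The offset of 1 understates differences of low genes. The block of reads by length class in the deposited table (16 columns) was not used here.

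limma (with an intensity trend) was fitted to the log2 values of all 16 libraries with 1 coefficient per group and no replicate term, with Benjamini-Hochberg adjustment over 5824 genes and a threshold of 0.05. The design had named a count test if the values were whole counts, and limma was used because they are log2 values. For the read shares, exact permutation tests were two-sided (70 assignments). Replicates differed by more than counting noise (chi-square per degree of freedom 5.42 to 75.0), so none was taken for a duplicate. The limma step was run on simulated reads with the same dispersion for every gene, a check of the code and not of error rates in these data. Members and lists were chosen with earlier results of these data known. Named genes were both CIPK9 copies, all CIPKs and CBLs, up to 4 genes per list and calcium contrast that passed, by smallest p, or the most read where none passed, and the 5 genes most like each copy.

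Other settings tried were scaling by the total or by median-ratio size factors, offsets of 0.1 and 5, a filter of 10 reads per Mread, a replicate block, voom on the recovered reads, a fit of the 2 groups compared, leaving out each library and Spearman's rho. The fit over gene pairs was added after seeing the data. The tools were limma 3.58.1 in R 4.3.3, and scipy 1.17.1, pandas 2.3.3, numpy 2.4.6 and matplotlib 3.10.9 in Python 3.11.15.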

Additional observations from a re-analysis of the deposited data

Results flagged for a closer look

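In 3 of 40 groups of 4 libraries checked over the CIPK9, CIPK and CBL genes and the pair's share, 1 library lay far from the other 3, with a gap, as a share of the group's range, above Dixon's 95% critical value. Chance gives about 1 in 20 such groups. In low calcium root, CIPK11 (Et_3A_026983) had log2 values of 6.34, 6.50, 6.48 and 6.48, with replicate 1 apart (gap 0.882 of the range). In low calcium shoot, the low-quality CIPK19 gene (Et_9B_063715) had 6.24, 6.94, 6.32 and 6.21, with replicate 2 apart (0.853). In low calcium root, the B copy of CBL3 (Et_4B_037384) had 6.54, 6.50, 6.17 and 6.53, with replicate 3 apart (0.882). No CIPK9 group was among them. Reads per library were few in these groups: 47 to 97, 65 to 92 and 54 to 86, in the order named. Counting error was not told apart from other spread here.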

How the results depend on the processing

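The B copy's tissue differences kept their direction and passed under all 16 alternatives at each calcium level, and neither copy's calcium differences changed sign in any. Leaving out each library gave -0.18 to 0.24 for the A copy's tissue difference at optimum and -0.58 to -0.14 at low calcium, 0 to 10 calls among the listed genes in root, 36.2 to 38.2 points for the share at optimum and 30.5 to 34.7 points at low calcium. With 3 against 4 libraries the smallest exact permutation p for the share is 0.0571, so no call can pass. It gave -0.12 to 0.042 (CIPK11), -0.32 to 0.080 (Et_9B_063715) and -0.12 to 0.0025 (Et_4B_037384) for low minus optimum calcium in root, and -0.19 to 0.049 for CIPK11 in shoot. With median-ratio factors CIPK11 turned to 0.035 in root and 0.029 in shoot and Et_9B_063715 to 0.0075 in root, and with scaling by the total CIPK11 turned to 0.10 and Et_3A_025028 to 0.024 in shoot. The listed genes that passed in root numbered 2 with scaling by the total, all falls. They numbered 12 in a fit of the 2 groups alone, where 2 calcium-dependent protein kinases and 1 phosphatase of type 2C rose. The share of all genes called in these fits, or with a replicate block, is not given here. The cause of these shifts was not tested.

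Same-numbered libraries deviated together with r from -0.40 to 0.30, not above 0.1 in every pair. The labels do not say what a shared number means, so these r cannot settle whether the libraries are paired. With the replicate block 2 listed genes passed in root, and the share differences of 37.1 and 33.1 points had an exact sign-flip p of 0.125 each, the smallest possible. Of the 5 genes nearest each copy by Pearson r, Spearman's rho kept 2 (A copy) and 1 (B copy), and 1 and 0 with tissue means subtracted. The filter removed 0 of 5824 genes and so tested nothing. Few reads limit the B copy in low calcium root.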
